A study of Homo sapiens with 12 samples.

Results

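The 10 genes described here belong to the YAP-TEAD pathway, the transcriptional end of Hippo signalling, with connective tissue growth factor (CTGF) as its best-known output. They were taken by gene symbol from both deposited tables: the secreted targets CTGF and CYR61, the nuclear target ANKRD1, the angiomotins AMOTL1 and AMOTL2, the LIM protein AJUBA, the kinase LATS2, the DNA-binding partner TEAD1, and the coactivators YAP1 and WWTR1 (TAZ). All 10 of 10 were present in each table of 19423 genes. Poly(A) RNA was sequenced from sorted populations of A375, a cutaneous melanoma line, and 253J, a bladder carcinoma line. The 4 groups were A375 bead-positive, A375 bead-negative, 253J bead-positive and 253J bead-negative cells, with 3 libraries each. Every population had grown for 5 generations before being given 2.4 µm fluorescent beads for 24 h, and was trypsinised and sorted, in 5 cycles. Positive cells had taken up at least 1 bead, and negative cells had taken up none in any cycle. The labels name neither a transgene nor a drug, and no unsorted population was analysed here. Whether replicate libraries were grown as separate cultures is not stated, so p-values measure the spread between these libraries, which may be technical.

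In the Hippo pathway the kinases LATS1 and LATS2, held in place by adaptor proteins, phosphorylate YAP and TAZ and keep them out of the nucleus. When the kinases are less active, as in spread cells under tension, YAP and TAZ enter the nucleus, bind TEAD proteins and turn on genes such as CTGF, CYR61 and ANKRD1. Several targets feed back on the pathway: AMOTL2 retains YAP and TAZ in the cytoplasm and LATS2 is itself an inhibitory kinase.

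Recovered depth was 14576506 to 17916519 reads per library, and a level below is a normalized read count, scaled within a line. Each library also carries a number in its labels. These numbers form a low set (at most 12) and a high set (at least 19). The low set of A375 holds 2 positive libraries (replicates 1 and 2) with 1 negative library (replicate 1), and the other 3 A375 libraries form the high set. The 253J sets are balanced, with replicate 3 of each branch in the high set and the rest in the low set. The A375 libraries stood apart by this number for most of the 10 genes, so values are also given from a set-blocked fit, which has the number set as a term. The sets were thus adopted after these genes' values were seen, and fits by set describe that split rather than test it. The labels do not say what the numbers mean. Line identity matched the labels in part. The melanocytic markers summed to 10364.9 to 13881.8 in positive and 13083.1 to 25355 in negative A375 libraries, with 7 of 8 markers in the table. Most of that sum came from DCT, MITF and PMEL, and MLANA, TYR, GPR143 and TYRP1 were each at most 94.0. Of 6 tested, 3 were called lower in positive A375 cells and 0 higher, where 5.26% of all genes were called lower. In 253J these markers summed to 1290.4 to 1330.6 in positive and 1303 to 1362.4 in negative libraries, mostly from MITF. The epithelial markers, also 7 of 8, summed to 37304.2 to 39105.8 in positive and 35315.3 to 41572.5 in negative 253J libraries, mostly from KRT8, KRT18 and KRT19. In A375 they summed to 974.3 to 1065 in positive and 1193.5 to 1277.7 in negative libraries. EPCAM was at most 6.1 in any library and GATA3, a urothelial factor, was at most 26.0 in 253J. Leukocyte markers, 4 of 8, summed to at most 26.4 in positive and 19.8 in negative A375 libraries, and to at most 36.4 in positive and 40.5 in negative 253J libraries.

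TEAD proteins bind a short element written GGAATG. The 250 bases upstream of the RefSeq transcription starts (GRCh38.p14) were searched for it on both strands, where the other strand reads CATTCC. Of the 10 genes, 8 had an entry, with 11 windows in all. The 5 windows that hold it are printed, read in the direction of transcription and ending at the base before the start, so that the number and place of the elements can be compared. Capitals mark the element. They are CTGF at chr6:131951373-131951622 on the minus strand, ANKRD1 at chr10:90921088-90921337 on the minus strand, the more downstream of the AMOTL2 starts at chr3:134374448-134374697 on the minus strand, the more downstream of the AJUBA starts at chr14:22976843-22977092 on the minus strand, and YAP1 at chr11:102110197-102110446 on the plus strand.
CTGF: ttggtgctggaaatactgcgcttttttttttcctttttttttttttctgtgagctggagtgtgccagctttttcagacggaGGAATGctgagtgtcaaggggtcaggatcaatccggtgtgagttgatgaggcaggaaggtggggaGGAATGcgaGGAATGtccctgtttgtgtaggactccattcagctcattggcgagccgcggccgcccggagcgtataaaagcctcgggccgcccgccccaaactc
ANKRD1: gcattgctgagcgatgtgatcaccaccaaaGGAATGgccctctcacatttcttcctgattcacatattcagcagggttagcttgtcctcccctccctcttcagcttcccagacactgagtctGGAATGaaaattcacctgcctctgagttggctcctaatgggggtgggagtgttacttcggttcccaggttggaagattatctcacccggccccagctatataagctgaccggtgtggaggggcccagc
AMOTL2: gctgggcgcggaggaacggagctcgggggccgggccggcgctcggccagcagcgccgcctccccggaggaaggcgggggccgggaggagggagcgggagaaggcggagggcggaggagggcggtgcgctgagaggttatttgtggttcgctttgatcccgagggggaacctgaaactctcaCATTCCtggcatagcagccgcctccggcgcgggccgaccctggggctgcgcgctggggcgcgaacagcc
AJUBA: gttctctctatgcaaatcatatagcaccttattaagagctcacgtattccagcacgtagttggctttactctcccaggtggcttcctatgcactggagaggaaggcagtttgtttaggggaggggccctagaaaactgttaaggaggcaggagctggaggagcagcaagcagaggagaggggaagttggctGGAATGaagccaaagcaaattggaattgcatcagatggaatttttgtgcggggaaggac
YAP1: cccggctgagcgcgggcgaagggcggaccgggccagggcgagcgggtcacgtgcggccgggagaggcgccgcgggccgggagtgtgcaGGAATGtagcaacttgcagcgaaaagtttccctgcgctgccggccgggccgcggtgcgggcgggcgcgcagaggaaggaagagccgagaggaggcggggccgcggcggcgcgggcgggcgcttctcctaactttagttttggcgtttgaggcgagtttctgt
The CTGF window holds 3 elements, which begin 169, 104 and 95 bases before the start. ANKRD1 holds 2, at 220 and 128 bases, AMOTL2 holds 1 on the other strand at 69 bases, and AJUBA holds 1 at 59 bases. YAP1 holds 1, at 162 bases. Among all 35116 windows of this length, 11.9% hold at least 1 element, 0.94% at least 2 and 0.0826% at least 3. The pattern TGANTCA takes any middle base and so is looser than the AP-1 element. It occurs once among the members' windows, as tgattca in ANKRD1 at 195 bases, and in 6.57% of all windows. No match was found in the windows of AMOTL1, LATS2 and WWTR1 or in the upstream windows of AMOTL2 and AJUBA.

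CTGF (CCN2, ENSG00000118523) encodes a secreted matricellular protein that binds integrins and growth factors, and lies at 131948176 to 131951373 on chromosome 6 of GRCh38, minus strand. In 253J it was clearly higher in cells that took up beads. Its level was 943.1, 926.7 and 957.0 in positive replicates 1 to 3, against 420.1, 403.5 and 286.0 in negative replicates 1 to 3. The positive libraries lay within a narrow range and the groups did not overlap. The rise was 2.58-fold (log2 fold change 1.37 ± 0.13 SE, 95% interval 1.06 to 1.67, limma adjusted p = 0.00210, n = 3 each). It held within each number set, at 1.18 in the low and 1.74 in the high set, and with any 1 of the 6 libraries left out, where the adjusted p ranged from 1.48e-05 to 0.0256. With same-set libraries averaged and no block, the adjusted p was 0.0523. CTGF was the only member called in 253J, 1 of 9 tested, where 1.09% of all 14189 tested genes were called and 0.529% were called higher. Among the 75 genes called higher it ranked 24th by size. In sorted bulk populations, fewer cells with a transcript and less transcript per cell cannot be told apart.

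In A375 the CTGF libraries split by sample number and not by branch. Its level was 2278.7, 2190.9 and 829.0 in positive replicates 1 to 3, against 2217.2, 883.3 and 873.0 in negative replicates 1 to 3. The 3 low-numbered libraries were all high and the 3 high-numbered libraries were all low, whichever branch they came from. The branch difference was 0.42 ± 0.47 on the log2 scale and did not pass (95% interval -0.66 to 1.51, adjusted p = 0.637). It moved with single libraries, to 0.90 without positive replicate 3, 0.87 without negative replicate 1, and 0.17 to 0.21 without any 1 of the other 4, with no call in any of these. In the set-blocked fit it was -0.04 ± 0.04 (95% interval -0.12 to 0.05, adjusted p = 0.565), and within the low and the high set it was 0.01 and -0.08. The rise seen in 253J lies outside that blocked A375 interval and inside the unblocked one. The block was chosen after these values were seen, so an equal rise in A375 is not excluded. The difference between lines, A375 minus 253J, was -0.94 without a block (adjusted p = 0.359), with a range of -1.19 to -0.47 when 1 library was left out, the smallest without A375 positive replicate 3 (-0.47) or A375 negative replicate 1 (-0.50). It was -1.40 ± 0.11 in the set-blocked fit (adjusted p = 9.39e-09). An antisense gene that shares 195 exonic bases with CTGF was at most 15.1 in A375 and 6.1 in 253J, and the strand setting of the counting is not stated.

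**Figure D1:**
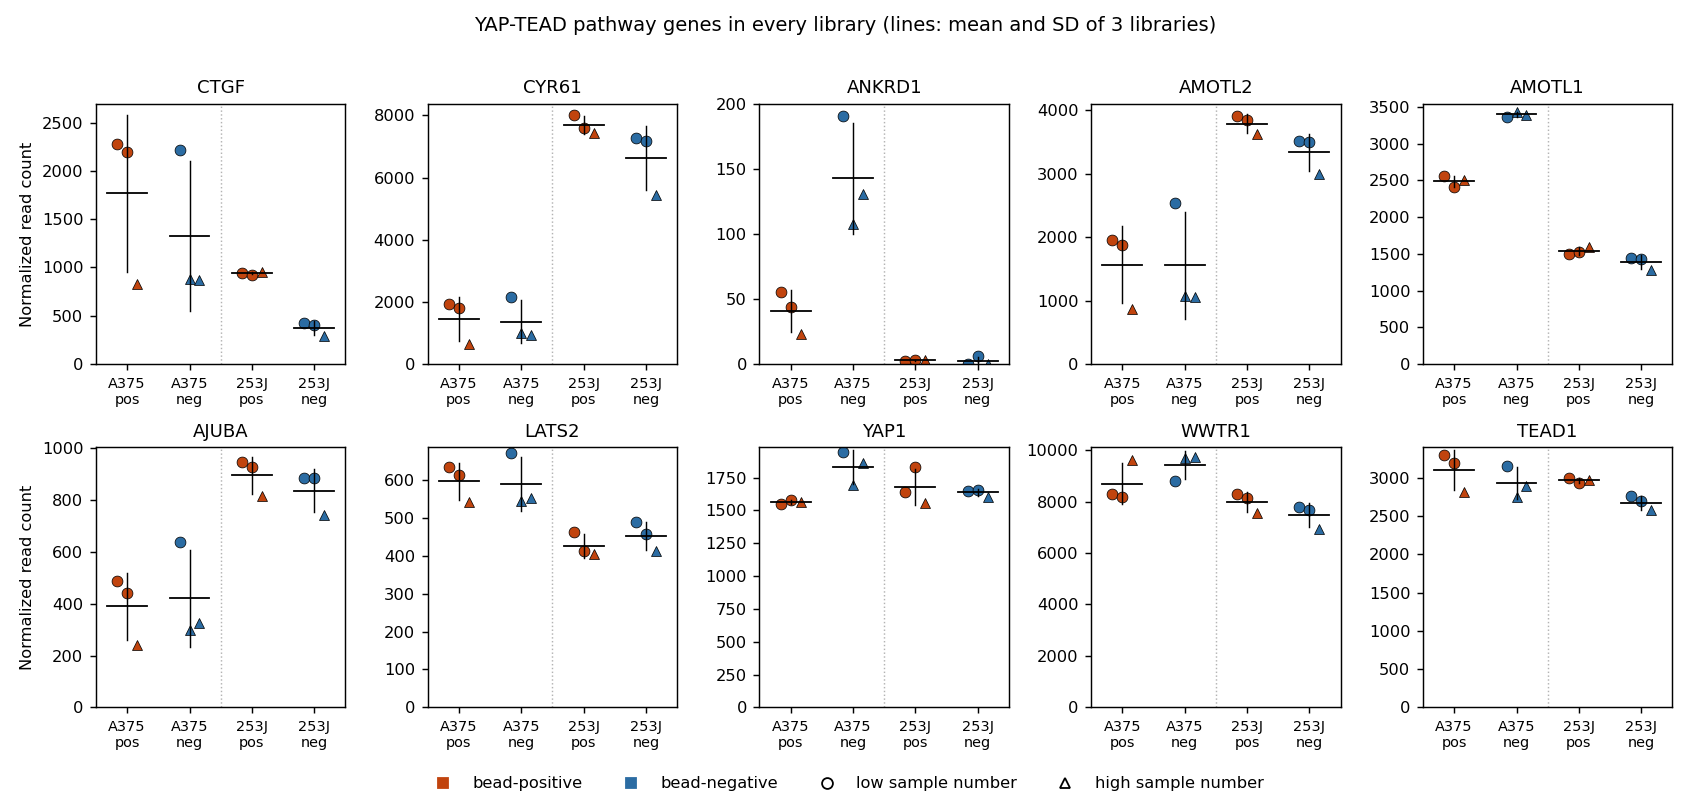
Normalized read count of the 10 genes in all 12 libraries, each panel with its own axis from 0. Bars show the mean and SD of 3 libraries, colour marks the branch and marker shape the sample number set. In 253J the CTGF levels of positive libraries (926.7 to 957.0) lie above those of negative ones (286.0 to 420.1), whereas in A375 they split by marker shape.

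CYR61 (CCN1, ENSG00000142871, chromosome 1, 85580761 to 85583962, plus strand) encodes the CCN protein closest in use to CTGF as a YAP readout. In 253J it was the most abundant of the 10 per length, at 8001.4, 7607.4 and 7436.7 in positive replicates 1 to 3 and 7264.8, 7181.0 and 5425.3 in negative replicates 1 to 3. The groups did not overlap, though the gap between the lowest positive and the highest negative library was small beside the spread of the negative ones. The difference of 0.23 ± 0.11 did not pass (adjusted p = 0.412). Whether the replicate numbers pair the 253J libraries is not settled. Deviations of low-set positive and negative libraries correlated at r = 0.29 and 0.19 with the same replicate number. With different replicate numbers r was 0.21 and 0.17. With the replicate block CYR61 passed (adjusted p = 0.0201, where 14% of all genes were called, 7.28% higher and 6.75% lower). In A375 the level was 1924.7, 1812.5 and 648.6 in positive replicates 1 to 3, against 2148.4, 998.1 and 916.8 in negative replicates 1 to 3. As for CTGF, the low-numbered libraries were the high ones. The branch difference was 0.07 ± 0.46 without a block (adjusted p = 0.949). The median of 1237 tested protein-coding genes on chromosome 1 was 0.16 in that fit, with 216 called higher and 24 lower. The part of that shift in the CYR61 value was not tested. In the set-blocked fit CYR61 was lower, by -0.38 (log2, adjusted p = 1.80e-06).

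ANKRD1 (ENSG00000148677, chromosome 10, 90912096 to 90921276, minus strand) encodes a nuclear and sarcomeric ankyrin-repeat protein of muscle that is also a standard YAP target. Among the 10 it showed the largest branch difference in A375, and it fell in positive cells. Its level was 55.0, 43.5 and 23.3 in positive replicates 1 to 3, against 190.5, 107.8 and 130.4 in negative replicates 1 to 3. The groups did not overlap, and within each branch the high-numbered libraries were below the low-numbered ones. The fall was 3.56-fold (log2 fold change -1.83 ± 0.33, 95% interval -2.60 to -1.07, adjusted p = 0.0141). It was -1.94 in low-numbered and -2.30 in high-numbered libraries, and -2.12 ± 0.16 in the set-blocked fit (adjusted p = 4.01e-12). The call did not survive omission of positive replicate 2 (adjusted p = 0.0542) or negative replicate 3 (0.0545), or with same-set libraries averaged and no block (0.135). In 253J the gene was at 2.1, 3.2 and 3.0 in positive and 0, 6.2 and 0 in negative replicates 1 to 3, near the floor of a few reads. It was too low there to be tested, and no fold is given. The 253J cells thus carried high CTGF and CYR61 counts with almost no ANKRD1.

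AMOTL1 (ENSG00000166025, chromosome 11, 94706431 to 94876753, plus strand) encodes an angiomotin that binds YAP and TAZ at junctions and actin. It was lower in A375 positive cells and did not follow the sample number. Its level was 2556.9, 2404.7 and 2502.1 in positive replicates 1 to 3, against 3366.3, 3432.4 and 3395.3 in negative replicates 1 to 3. Both groups were tight and well separated. The fall was 1.37-fold (log2 fold change -0.45 ± 0.05, adjusted p = 0.00165), with -0.44 in low-numbered and -0.45 in high-numbered libraries. It held with any 1 of the 6 libraries left out (adjusted p 0.00239 to 0.0159) and not with same-set libraries averaged and no block (0.0943). In 253J AMOTL1 was at 1500.2, 1518.1 and 1593.3 in positive and 1448.2, 1435.7 and 1277.3 in negative replicates 1 to 3. That difference, 0.15 ± 0.07, did not pass (adjusted p = 0.378). The effects in the lines differed by -0.60 ± 0.08 (A375 minus 253J, adjusted p = 0.000912). AMOTL1 was the only 1 of 9 members tested for which this was called without a block, where 6.16% of 12509 genes were called. ANKRD1 and AMOTL1 were the 2 of 10 members called in A375, both lower, where 10.2% of 14118 tested genes were called, 4.99% higher and 5.26% lower.

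AMOTL1 lies on a chromosome whose genes were lower as a whole in A375 positive cells. The median log2 fold change of 691 protein-coding genes on chromosome 11 was -0.27, and 14.9% of them were lower than AMOTL1. Of the 691, 239 were called lower and 8 higher without a block, and 89.1% had a negative value. Relative to that median AMOTL1 was at -0.18. YAP1, also on chromosome 11, was at 0.04 relative to it. TEAD1, on the same chromosome, was 0.35 above it, and 91.5% of the chromosome's genes had a lower fold change. The part of the chromosome-wide difference in these values was not tested. In 253J the median of chromosome 11 was -0.01.

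**Figure D2:**
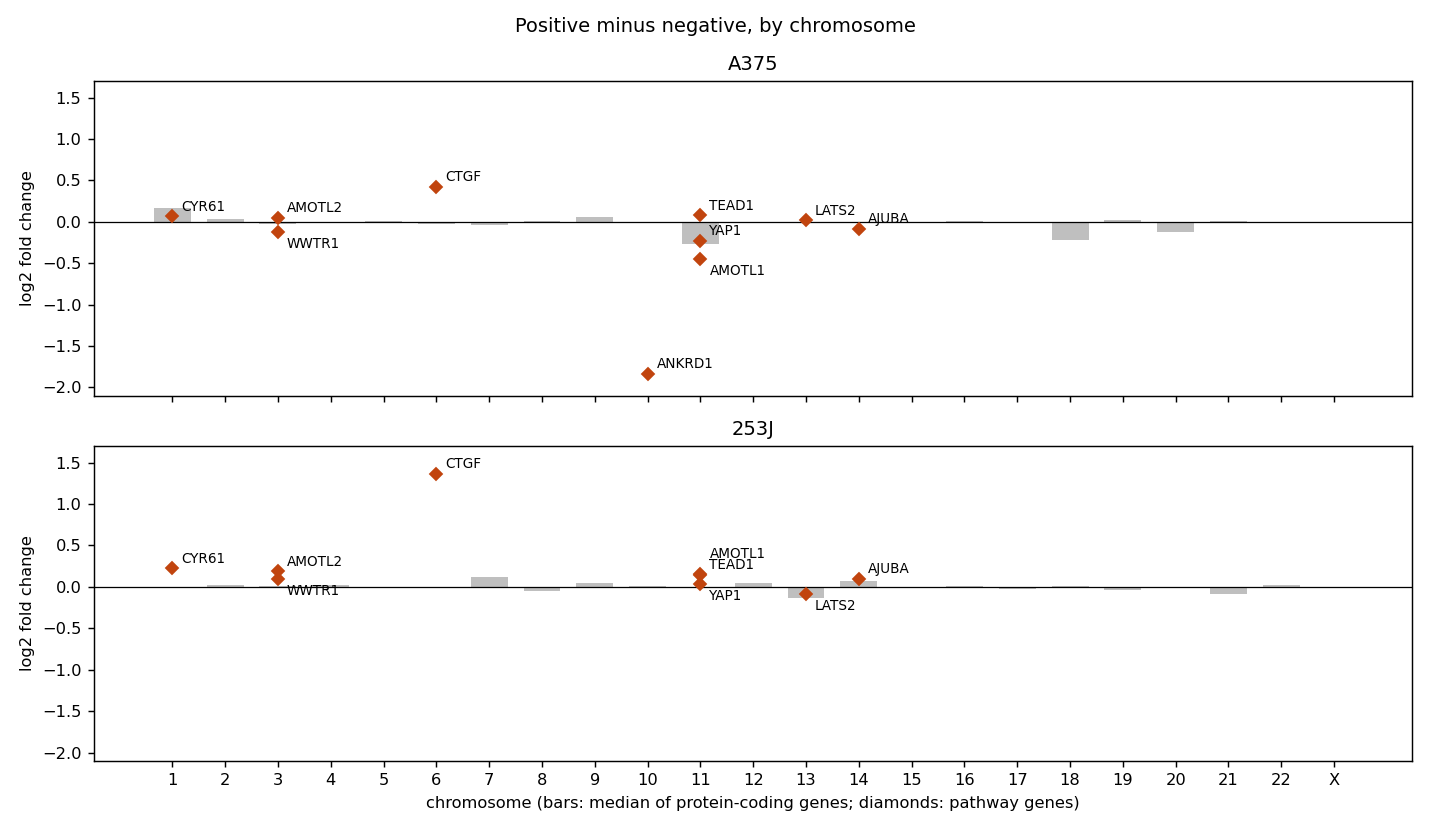
Log2 fold change of positive minus negative cells by chromosome in A375 (top) and 253J (bottom), with bars for the median of tested protein-coding genes and diamonds for the pathway genes. In A375 the chromosome 11 median is -0.27, with AMOTL1 below it and TEAD1 above it, and ANKRD1 lies at -1.83 on chromosome 10, whose median is -0.01.

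AMOTL2 (ENSG00000114019, chromosome 3, 134355874 to 134375479, minus strand), the angiomotin that is itself a YAP target, behaved unlike AMOTL1 in A375. Its level was 1961.1, 1874.0 and 861.4 in positive replicates 1 to 3, against 2532.4, 1069.3 and 1056.1 in negative replicates 1 to 3. As for CTGF and CYR61, the low-numbered libraries were high and the high-numbered ones low. The branch difference was 0.05 ± 0.41 (adjusted p = 0.959), and in the set-blocked fit AMOTL2 fell by 0.35 (adjusted p = 5.13e-08). The 253J level was 3905.0, 3837.4 and 3622.0 in positive and 3506.2, 3492.0 and 3000.1 in negative replicates 1 to 3. The groups did not overlap, yet the difference of 0.19 ± 0.07 did not pass (adjusted p = 0.307). It passed with the replicate block (0.00899).

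AJUBA (ENSG00000129474, chromosome 14, 22971174 to 22982642, minus strand) encodes a LIM protein that binds LATS kinases at junctions under tension. In A375 it was at 486.9, 440.8 and 241.2 in positive replicates 1 to 3, against 636.3, 297.7 and 326.5 in negative replicates 1 to 3. Here too the split followed the sample number. The branch difference was -0.09 ± 0.34 (adjusted p = 0.909), and in the set-blocked fit AJUBA fell by 0.41 (adjusted p = 2.29e-05). In 253J its level was 814.9 to 946.3 in positive and 741.5 to 884.4 in negative libraries, which overlapped (0.10 ± 0.09, adjusted p = 0.689).

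LATS2 (ENSG00000150457, chromosome 13, 20973032 to 21061547, minus strand), the inhibitory kinase that YAP induces, differed little between branches. It was at 541.2 to 634.3 in positive and 544.0 to 671.3 in negative A375 libraries (0.02 ± 0.10, 95% interval -0.22 to 0.26, adjusted p = 0.937). The 253J level was 403.9 to 461.9 in positive and 412.4 to 487.5 in negative libraries (-0.09 ± 0.09, adjusted p = 0.734). The set-blocked fit gave -0.06 in A375 and passed in neither line (adjusted p = 0.428 in A375 and 0.404 in 253J).

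The coactivators and TEAD1 were among the steadier members. WWTR1 (ENSG00000018408, chromosome 3, 149517235 to 149736714, minus strand), which encodes TAZ, had the highest level per length of the 10 in A375. It was at 8292.7, 8162.1 and 9618.3 in positive and 8794.1, 9707.6 and 9744.9 in negative A375 replicates 1 to 3 (-0.12 ± 0.08, adjusted p = 0.395). Its 253J level was 7555.5 to 8276.3 in positive and 6942.4 to 7790.9 in negative libraries (0.10 ± 0.07, adjusted p = 0.574). Neither difference passed, and both groups overlapped in both lines. YAP1 (ENSG00000137693, chromosome 11, 102110461 to 102233423, plus strand) was at 1551.0, 1577.0 and 1562.7 in positive A375 replicates 1 to 3, against 1942.9, 1693.4 and 1861.4 in negative ones. The groups did not overlap, and the difference of -0.23 ± 0.06 stood just outside the threshold (adjusted p = 0.0587). In the set-blocked fit YAP1 fell by 0.25 (adjusted p = 2.59e-05). In 253J YAP1 was at 1559.8 to 1831.2 in positive and 1605.4 to 1659.0 in negative libraries (0.03 ± 0.07, adjusted p = 0.881).

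TEAD1 (ENSG00000187079, chromosome 11, 12674591 to 12944483, plus strand) was at 2808.2 to 3300.3 in positive and 2751.8 to 3153.8 in negative A375 libraries (0.08 ± 0.08, adjusted p = 0.593). The 253J level was 2997.2, 2926.6 and 2967.4 in positive, against 2754.7, 2693.8 and 2575.7 in negative replicates 1 to 3. The 253J groups did not overlap, and the difference of 0.15 ± 0.05 did not pass (adjusted p = 0.264), whereas it passed with the replicate block (0.0264) and in the set-blocked fit (0.00750). In 253J the replicate block called 4 of 9 members, all higher: CTGF (adjusted p = 6.34e-07), CYR61, AMOTL2 and TEAD1. That block called 14% of all genes, 7.28% higher. Branches did not overlap for 5 of 9 members in 253J, all higher in positive cells. Of all genes, 10.4% were separated in that direction and 20.2% in either. In A375 branches did not overlap for 3 of 10, all lower in positive cells. There 15% of all genes were separated in that direction and 29.5% in either, so 3 of 10 is near the share in either direction. AMOTL1 and YAP1, among these 3, lie on chromosome 11.

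**Figure D3:**
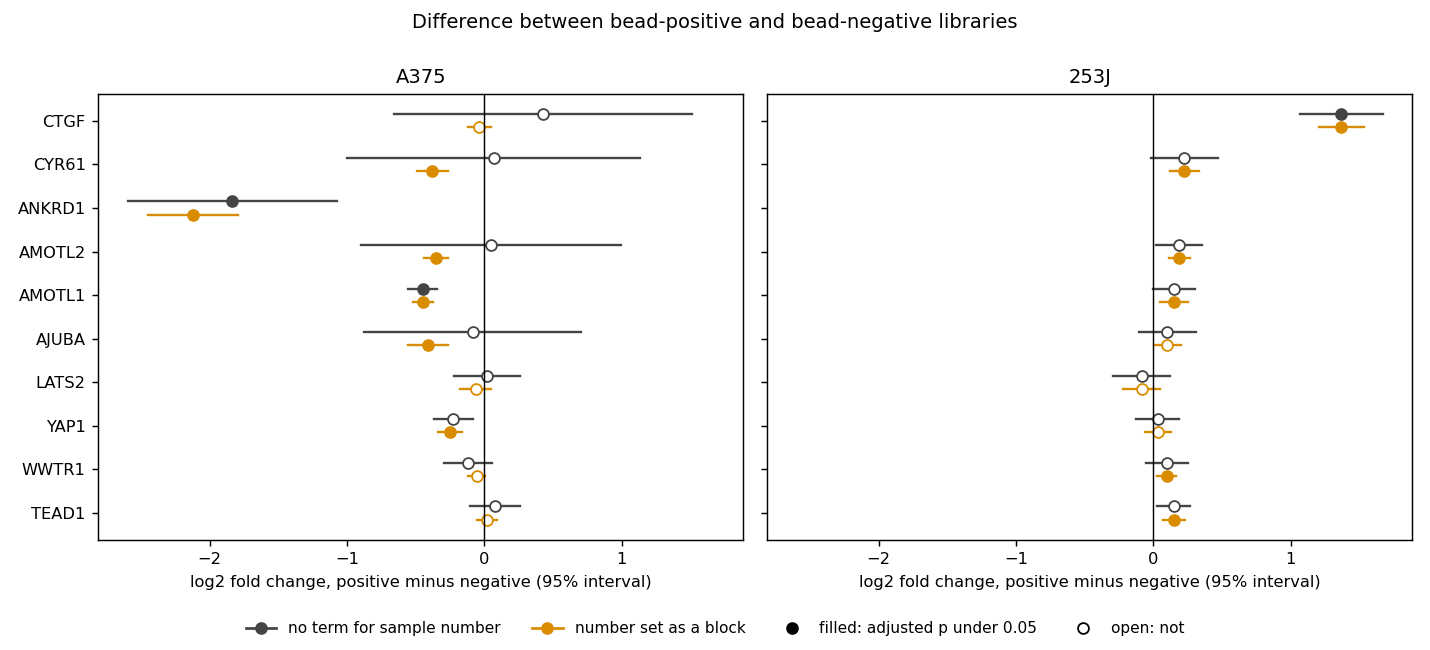
Log2 fold change of positive minus negative cells for each gene with its 95% interval, in A375 (left) and 253J (right), without a term for the sample number (grey) and with one (orange). Filled points passed at an adjusted p under 0.05. The A375 intervals of CTGF, CYR61, AMOTL2 and AJUBA shrink with the block, and ANKRD1 in 253J was too low to be tested.

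In the set-blocked fit every member called in A375 fell and every member called in 253J rose. In A375, 6 of 10 fell and 0 rose (CYR61, ANKRD1, AMOTL1, AMOTL2, AJUBA and YAP1), where 32% of tested genes were called and 16.5% were called lower. AMOTL1 and YAP1 lie on chromosome 11, whose genes were lower as a whole in A375 positive cells. In 253J, 6 of 9 rose and 0 fell (CTGF, CYR61, AMOTL1, AMOTL2, TEAD1 and WWTR1), where 18.6% were called, 9.78% higher and 8.87% lower. The difference between lines was called lower in A375 for 7 of 9 members, all but LATS2 and TEAD1 (adjusted p = 0.0542 for TEAD1), where 28% were called and 14.6% were called lower. The spread in this fit is largely that between libraries of the same set, which can make its p-values too small. With same-set libraries averaged to 1 value and the block kept, the same 6 fell in A375 (29.1% of all genes called). In 253J 2 rose, CTGF (adjusted p = 6.80e-07) and CYR61 (0.0397), where 6.55% were called and 3.4% were called higher. This blocked fit has 1 value per branch and set, so limma takes its spread mostly from other genes. Its p-values therefore say little about the spread between libraries. Averaged without the block, 0 of 10 members were called in A375, where 0.375% of genes were called, 0.198% higher and 0.177% lower. Averaged without the block, 0 of 9 were called in 253J, where 0.148% were called, 0.0987% higher and 0.0493% lower. At an unadjusted p under 0.05 that limma fit held 3 of the 10 in A375 (ANKRD1, AMOTL1 and YAP1), where 13.3% of all genes were under it. It held 1 of the 9 in 253J, CTGF, where 5.53% were under it.

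In A375 the sample number went with differences larger than those of the branch for CTGF, CYR61, AMOTL2 and AJUBA, whereas for ANKRD1 the branch difference was the larger. The sets were adopted because these genes split by them, so the calls below describe the split and are no independent support for it. Low-numbered minus high-numbered libraries, with the branch in the fit, gave a log2 difference of 1.38 ± 0.04 for CTGF, 1.35 ± 0.06 for CYR61, 1.20 ± 0.04 for AMOTL2 and 0.98 ± 0.07 for AJUBA. ANKRD1 was at 0.86 ± 0.16, LATS2 at 0.25 ± 0.06 and TEAD1 at 0.18 ± 0.04. In A375, 7 of 10 members were called higher and 1 lower, WWTR1 at -0.19 ± 0.03, whereas AMOTL1 (-0.02) and YAP1 (0.07) did not pass. All genes gave 18.4% called higher and 36.8% called in either direction. With same-set libraries averaged, the same 7 were called higher and WWTR1 lower, where 33.5% of genes were called, 16.6% higher and 16.9% lower. In either line that fit has 1 value per branch and set, so limma takes its spread mostly from other genes. Its calls therefore say little about the spread between libraries. CTGF was at 2190.9 to 2278.7 in the low set and 829.0 to 883.3 in the high set, so that the sets did not overlap. Neither did they for CYR61, AMOTL2, AJUBA, LATS2, TEAD1 and WWTR1, against 33.3% of all genes whose sets did not overlap.

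In 253J the same contrast was smaller. CTGF (0.25 ± 0.08), CYR61 (0.24 ± 0.05), AJUBA (0.23 ± 0.05), AMOTL2 (0.16 ± 0.04) and WWTR1 (0.14 ± 0.04) were called higher in low-numbered libraries, 5 of 9 members, where 18.2% of genes were called higher and 32.6% in either direction. For CTGF only the negative branch was lower in the high set, at 286.0 in its 1 library, whereas the positive one there was at 957.0. The sets overlapped for CTGF, CYR61 and AMOTL2. They did not for AJUBA, WWTR1 and YAP1, all higher in the low set. Of all genes, 38.1% had sets that did not overlap, 20.3% with the low set higher. With same-set libraries averaged, only CYR61 (adjusted p = 0.0427) and AJUBA (0.0376) of the 9 were still called in 253J and CTGF was not (0.120), where 17.5% of genes were called, 9.69% higher and 7.83% lower. The contrast was larger in A375 than in 253J by 1.14 for CTGF, 1.10 for CYR61, 1.04 for AMOTL2 and 0.76 for AJUBA (adjusted p = 5.99e-07, 2.00e-07, 1.37e-10 and 3.70e-06, A375 minus 253J). For WWTR1 it was -0.32 (adjusted p = 3.47e-05), and 15.6% of genes were called in this difference, 5.95% higher and 9.65% lower. Transcripts of WWTR1 thus went down in the low-numbered A375 libraries where those of its targets went up. The cause of the number-set difference was not tested.

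**Figure D4:**
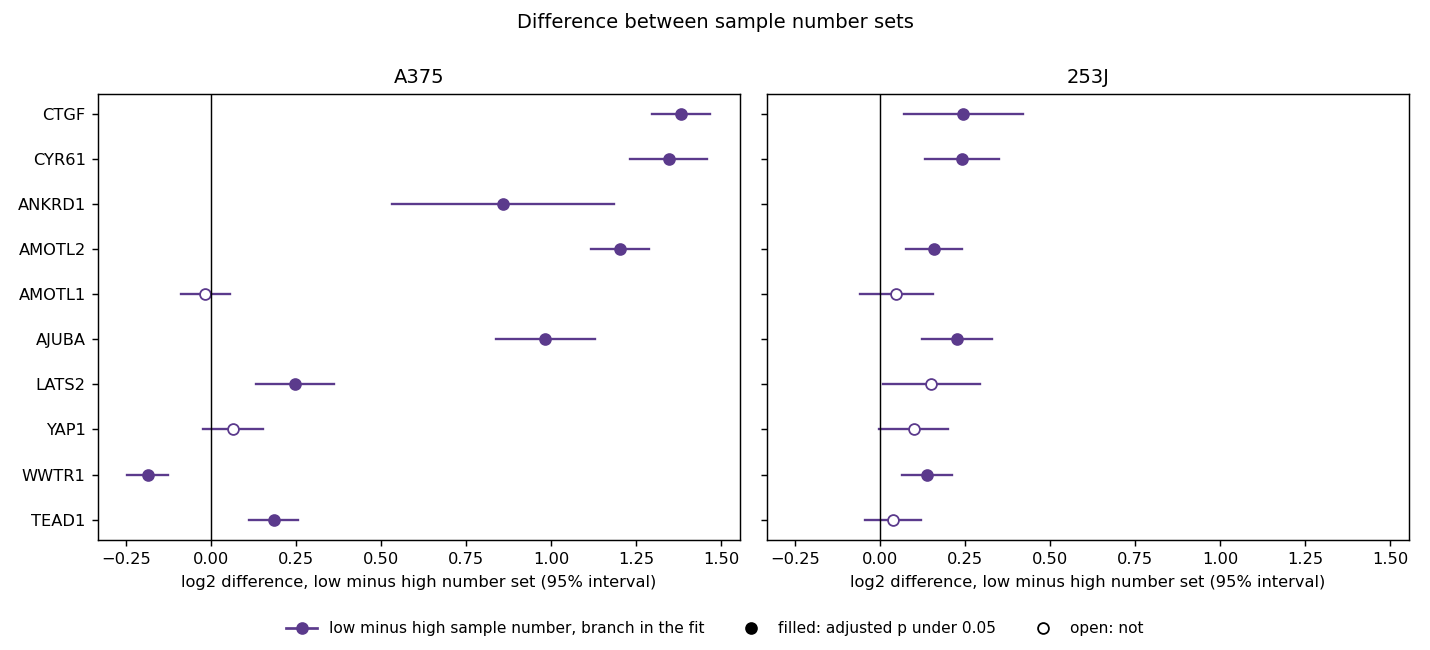
Log2 difference between low-numbered and high-numbered libraries for each gene, with its 95% interval, in A375 (left) and 253J (right). In A375 the points of CTGF, CYR61, AMOTL2 and AJUBA lie between 0.98 and 1.38, and in 253J those of the same genes lie between 0.16 and 0.25.

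How closely the members followed CTGF differed between the lines. Within A375 (6 libraries), Pearson's r with CTGF on the log2 scale was 0.96 for CYR61, AMOTL2 and TEAD1, 0.94 for LATS2 and 0.91 for AJUBA, against -0.95 for WWTR1, -0.34 for AMOTL1, -0.06 for YAP1 and 0.10 for ANKRD1. In 253J it was 0.98 for TEAD1, 0.89 for AMOTL1, 0.88 for AMOTL2, 0.79 for CYR61, 0.73 for WWTR1, 0.58 for AJUBA, 0.25 for YAP1 and -0.25 for LATS2. WWTR1, AMOTL1, LATS2 and YAP1 thus had opposite signs in the lines, with YAP1 at only -0.06 in A375. These are descriptions, since the libraries share the branch and number-set structure. Over all 12 libraries, centred within each line, the 5 genes most like CTGF among 10161 ranked were COL8A1 (r = 0.98), ZNF268 (0.97), STK17A (0.96), TEAD1 (0.96) and ZNF134 (0.95). COL8A1, a short-chain collagen of basement membranes, was at 148.6, 137.1 and 102.5 in positive and 37.6, 41.3 and 20.1 in negative 253J replicates 1 to 3. It rose 3.96-fold there (adjusted p = 0.0135), a call lost without positive replicate 1 (0.0918) or 2 (0.0996). In A375 COL8A1 was at 785.9, 748.3 and 146.9 in positive and 528.6, 197.8 and 193.1 in negative replicates 1 to 3, split by number like CTGF. The genes most like CYR61 included CRIM1 (0.99), a target of the published YAP signature, and the members AMOTL2 (0.98) and AJUBA (0.96).

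**Figure D5:**
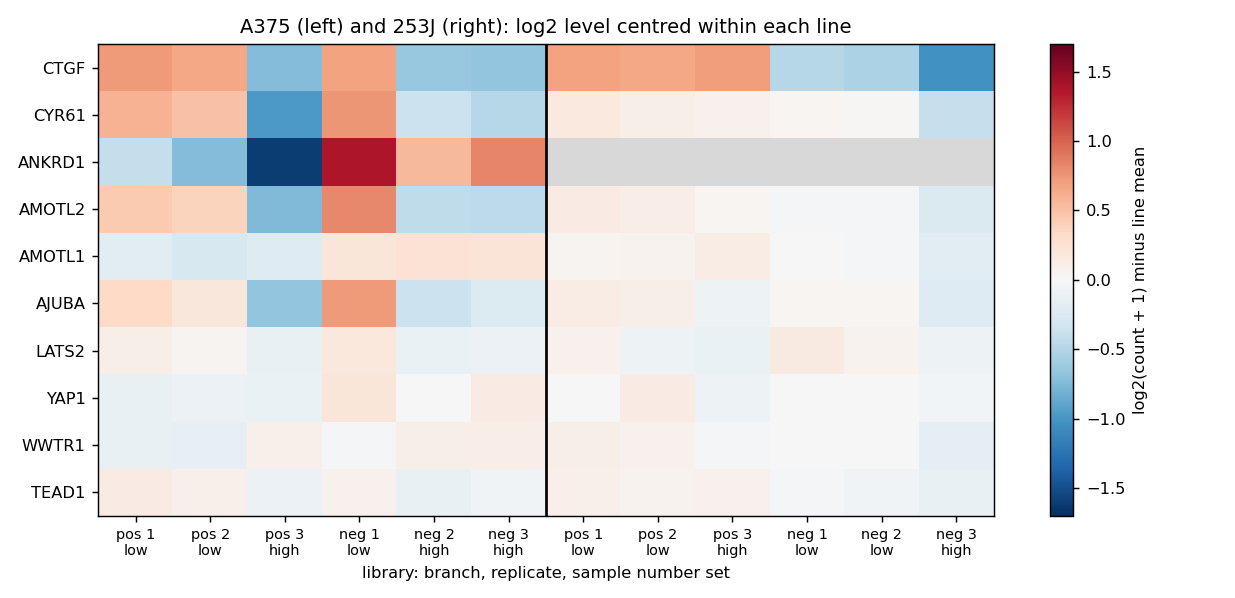
Log2(count + 1) of each gene minus its mean over the 6 libraries of the line, with positive libraries left of negative ones in each line and the number set written under each library. Red is above and blue below the line's mean, and grey marks ANKRD1 in 253J, which was not tested. In A375 the rows of CTGF, CYR61, AMOTL2 and AJUBA are red in the 3 low-numbered libraries.

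Levels between genes can be compared only per length. In normalized reads per kb of exon, averaged over the 6 libraries of A375, WWTR1 (1076) came before CTGF (661), CYR61 (574), TEAD1 (293), AMOTL1 (293), YAP1 (269.7), AMOTL2 (261), LATS2 (106), AJUBA (67.7) and ANKRD1 (46.4). Every pair of neighbours in that order overlapped over the libraries, apart from AMOTL2 and LATS2. In 253J CYR61 (2914) came before WWTR1 (919), AMOTL2 (595), CTGF (280.5), TEAD1 (274), YAP1 (263), AMOTL1 (146), AJUBA (145), LATS2 (78.7) and ANKRD1 (1.22). There the neighbours CTGF, TEAD1 and YAP1 overlapped, as did AMOTL1 and AJUBA, and the others did not. CYR61 thus had a higher level than 99.0% of tested genes in 253J and than 91.3% in A375, each on its own scale. CTGF had a higher level than 81.7% in 253J and 92.6% in A375.

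Other genes of the pathway were read against the share of all genes called without a block, 10.2% in A375 and 1.09% in 253J. Of 7 core kinases and adaptors, 0 were called in either line, and of 6 coactivators and TEADs, 0 in either line. The set-blocked fit, with 32% and 18.6% of all genes called in A375 and 253J, gave 2 core genes lower in A375 and 1 higher in 253J. It gave 2 coactivators and TEADs lower in A375, and 2 higher and 1 lower in 253J. In the set-blocked fit the kinase adaptor SAV1 fell in A375 by 0.48 (adjusted p = 2.14e-06) and STK4, the MST1 kinase, fell by 0.14 (0.00469), whereas STK4 rose by 0.18 in 253J (0.0109). Of 19 upstream regulators tested in A375, 2 fell, with a list median of -0.02 against 0.00 over all genes, and of 19 in 253J 0 were called, with a median of 0.10. Set-blocked, 6 of 19 fell and 0 rose in A375, and 5 rose and 1 fell in 253J. WWC3, of the KIBRA family of LATS activators, was at 169.2, 148.5 and 175.3 in positive and 259.3, 306.6 and 281.7 in negative A375 replicates 1 to 3 (1.72-fold lower, adjusted p = 0.00503). The giant cadherin DCHS1, on chromosome 11, was at 32.2, 39.7 and 50.7 in positive and 81.8, 111.8 and 128.4 in negative A375 replicates 1 to 3 (2.59-fold lower, adjusted p = 0.00946). Its call was lost without positive replicate 2 (0.0502) or negative replicate 2 (0.0504). LIMD1, of the AJUBA family, rose 1.20-fold in A375 (adjusted p = 0.0380), and lost the call without any 1 of positive replicates 1 (0.150) and 2 (0.141) and negative replicates 2 (0.150) and 3 (0.132).

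A published signature of 22 YAP and TAZ targets, which holds 5 of the members, split in A375. Without a block 3 rose and 1, ANKRD1, fell, with a median of 0.11, where 4.99% of all genes rose and 5.26% fell. The RNA-binding protein RBMS3 was at 174.1 to 218.9 in positive and 99.9 to 108.7 in negative libraries, and rose 1.84-fold (adjusted p = 0.00512). The stress gene GADD45A rose 1.32-fold (0.0282) and the Arf regulator ASAP1 rose 1.15-fold (0.0446). The GADD45A call was lost without positive replicate 1 (0.112) or 2 (0.121) or negative replicate 2 (0.111) or 3 (0.115), and the ASAP1 call was lost without any 1 library other than positive replicate 3 (0.0601 to 0.181). Set-blocked, 5 rose and 9 fell, with a median of -0.10, where 15.6% of all genes rose and 16.5% fell. In 253J, 1 of 21 tested rose, CTGF, with a median of 0.10, where 0.529% of all genes rose, and in the set-blocked fit 7 rose and 1 fell, where 9.78% of all genes rose and 8.87% fell. By number set, in A375, 16 of 22 were called higher and 1 lower in low-numbered libraries (median 0.59), where 18.4% of all genes were higher and 18.4% lower. In 253J 9 were higher and 3 lower of 21 (median 0.16), where 18.2% of all genes were higher and 14.4% lower. The lists and their members were known to overlap with genes described above, so these counts are not independent of them.

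Targets of serum response factor and its MRTF coactivators, which respond to actin and share genes with YAP, were also counted. In A375 low-numbered libraries were higher for 8 of 10 tested and lower for 0, among them TPM1 (0.85) and FLNA (0.56), where 18.4% of all genes were higher and 18.4% lower. In 253J 3 of 9 were higher and 1 lower, where 18.2% and 14.4% of all genes were. By branch, 2 of 10 rose in A375, where 4.99% of all genes rose, the focal adhesion protein VCL (1.21-fold, adjusted p = 0.0178) and TPM2 (1.21-fold, 0.0448). The VCL call was lost without positive replicate 1 (0.0781) or 2 (0.0930) or negative replicate 2 (0.0842) or 3 (0.0849), and the TPM2 call without any 1 library other than negative replicate 1 (0.0584 to 0.170). Set-blocked, 6 of 10 rose and 1 fell in A375, where 15.6% and 16.5% of all genes did. In 253J 0 of 9 were called by branch, where 1.09% of all genes were. In the set-blocked fit 0 rose and 1 fell there, where 9.78% and 8.87% of all genes did.

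Within the CCN family, to which CTGF and CYR61 belong, NOV (CCN3) moved in opposite directions in the lines. In A375 it was at 553.3, 584.6 and 439.8 in positive replicates 1 to 3, against 247.4, 146.4 and 150.3 in negative ones. In 253J it was at 1917.2, 1893.4 and 1831.8 in positive, against 2312.4, 2328.9 and 2497.4 in negative replicates 1 to 3. Groups overlapped in neither line. NOV rose 2.96-fold in A375 (adjusted p = 0.00465) and fell 1.26-fold in 253J (0.0284), and the effects differed by 1.90 ± 0.23 (A375 minus 253J, adjusted p = 0.000435). The A375 call and the difference held with any 1 library left out (adjusted p up to 0.0310 and 0.00229). The 253J call was kept only without negative replicate 3 and ranged up to 0.171 otherwise. CTGF and NOV thus pointed in opposite directions in 253J. Of 9 integrins and other CCN receptors, 1 fell in A375, ITGB5 (1.42-fold, adjusted p = 0.00383), where 10.2% of all genes were called, and 0 were called in 253J, where 1.09% were. Set-blocked, 3 rose and 1 fell in A375, where 32% of all genes were called. In 253J 0 rose and 2 fell set-blocked, where 18.6% were called.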

How the data were processed

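Poly(A) RNA-seq of 12 libraries was deposited as 1 table per line. GRCh38, HTSeq, DESeq2, STAR 2.4.2a and cutadapt are named, with no order, in the submitters' processing notes. The deposited signal values are the authors' normalized read counts, gene counts divided by a size factor for each library. All values came out as whole reads within 0.055. The test chosen for normalized values was used: limma 3.58.1 (R 4.3.3) on log2(value + 1), for genes with a mean of at least 10, in each line alone, with Benjamini-Hochberg adjustment at 0.05. Fold changes on this scale understate changes of low genes. The difference between lines was a contrast in a fit of all 12 libraries. Alternatives used edgeR 4.0.16 and DESeq2 1.42.0 on the recovered reads, other pseudocounts, no filter, blocks and left-out libraries. The number-set fits were added after the data were seen. Same-numbered 253J libraries deviated together (r = 0.29, 0.19 and 0.50), and a replicate block was fitted. Differently numbered libraries of the low set correlated about as well (r = 0.21 and 0.17), so pairing beyond the number set is not shown. Named genes of the pathway lists are those past the threshold without a block, apart from SAV1 and STK4 (set-blocked fit) and TPM1 and FLNA (number-set contrast). Other list genes passed in those fits and are not described, such as IGFBP3 and NF2 in the set-blocked one. The genes most like a member have the highest Pearson's r among genes with a mean of at least 50. Gene positions come from GENCODE release 29, which held 99.62% of the IDs. The members and lists were chosen with earlier results of these data known. The scripts were tested on simulated data.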

Additional observations from a re-analysis of the deposited data

Results flagged for a closer look

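The branch effect differed between A375 and 253J, by a contrast in 1 limma fit, for 1 of 9 pathway members tested and 5 genes of the related lists. Of all 12509 genes tested, 6.16% were called. The 5 were 1 of 18 upstream regulators tested, 2 of 21 signature targets, 1 of 4 CCN genes and 1 of 9 SRF-MRTF targets. Of 7 core kinases and adaptors, 6 coactivators and TEADs and 9 CCN receptors, 0 were called. AMOTL1 differed by -0.60 on the log2 scale (A375 minus 253J, adjusted p = 0.000912). NOV differed by 1.90 (adjusted p = 0.000435), WWC3 by -0.90 (0.00198) and RBMS3 by 0.97 (0.0173). ASAP1 differed by 0.53 (adjusted p = 0.00276) and VCL by 0.33 (0.0107). AMOTL1 lies on chromosome 11, whose median gene stood at -0.27 (log2) in A375 positive against negative cells, and the part of that in the AMOTL1 difference was not tested.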

How the results depend on the processing

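Calls in A375, 253J and the difference between lines numbered 1447, 155 and 770 genes, with 2, 1 and 1 members. Genes tested numbered 14118, 14189 and 12509 (10.2%, 1.09% and 6.16% called), and members tested 10, 9 and 9. The blocked and averaged fits below tested the same genes. With edgeR and with pseudocounts of 0.5 and 5, all 45 single-gene results kept their direction and side of the threshold. DESeq2 called 296 genes in 253J, and without the filter TPM2 (0.0507) and ASAP1 (0.0560) lost their A375 calls. The replicate block gave 2429, 1991 (14%) and 2032 genes, with 4 of 9 members in 253J and 4 of 9 in the difference. In A375 the replicate numbers did not pair the libraries (r = 0.41, -0.27 and 0.40), and that block added YAP1 (adjusted p = 0.0306). The number set block gave 4523 (32%), 2645 (18.6%) and 3504 (28%) genes, with 6 of 10, 6 of 9 and 7 of 9 members. Averaging same-set libraries gave 53, 21 and 85 genes with 0 members each, and the block added to it gave 4110, 929 and 2172 genes with 6, 2 and 6 members. These 3 number-set fits give the same A375 estimates, so they count as 1 result. In them the sign of the A375 change turned negative, to -0.036 for CTGF, -0.38 for CYR61, -0.35 for AMOTL2 and -0.063 for LATS2, and the cause was not tested. The CTGF and LATS2 changes passed neither there nor without a block. Leaving out 1 library at a time gave 488 to 1878 genes in A375, 39 to 370 in 253J and 446 to 906 in the difference, with 1 to 2 members in A375 and 1 in each of the others. It gave A375 changes of 0.17 to 0.90 for CTGF, -0.21 to 0.58 for CYR61, -0.16 to 0.47 for AMOTL2, -0.29 to 0.26 for AJUBA and -0.035 to 0.12 for LATS2. Differences between lines ranged over -1.19 to -0.47 for CTGF, -0.43 to 0.35 for CYR61, -0.35 to 0.28 for AMOTL2 and -0.39 to 0.16 for AJUBA, and YAP1 in 253J over -0.032 to 0.083.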
